A study of Homo sapiens with 4 samples.

Results

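Messenger RNA of 10 dual-specificity phosphatase genes was followed in human cells that had been kept in a magnetic field. The genes were DUSP1, DUSP2, DUSP4, DUSP5, DUSP6, DUSP7, DUSP8, DUSP10, DUSP14 and DUSP16, chosen by name. All 10 were found among the 26348 genes listed, and all 10 were among the 13811 genes kept for testing, which had at least 0.5 FPKM (fragment counts scaled to gene length and to the total of the library) in at least 3 libraries. DUSP2, DUSP4, DUSP6 and DUSP10 met that rule through the libraries of 1 line only, so their difference between the lines was bound to appear.

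Dual-specificity phosphatases of this family remove phosphate from both the threonine and the tyrosine of the activation loop of MAP kinases, and so switch ERK, JNK and p38 off. DUSP1, DUSP2, DUSP4 and DUSP5 act in the nucleus and are encoded by genes that respond quickly to growth factors and stress. DUSP6 and DUSP7 act on ERK in the cytoplasm, and DUSP8, DUSP10 and DUSP16 act mainly on JNK and p38. DUSP14 is a small atypical member without the domain that docks MAP kinases.

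A549 cells come from a non-small cell lung cancer. 293T cells come from embryonic kidney and express the large T antigen of a simian virus. The groups were A549 cells kept for 2 h in the field, A549 cells without a field, 293T cells kept for 2 h in the field and 293T cells without a field, with 3 libraries each (n = 3 throughout). Each line is a single culture model. Field strength, field source and temperature are not stated in the sources used here, which also do not tell whether replicate libraries are separate cultures. The tests therefore rest on a spread between libraries that may be only technical.

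The libraries held 37173110 to 38884704 counts. Exposed and control libraries separated on the first principal component of each line, which carried 74.8% of the variance in A549 and 71.8% in 293T. Replicate 3 of the exposed group lay nearest to the controls in both lines, at 9.91 against 15.7 and 18.2 for the other exposed A549 libraries and at 6.51 against 16.1 and 14.7 for the other exposed 293T libraries. Mitochondrially encoded transcripts took 7.69 to 7.96% of counts in exposed and 8.35 to 9.28% in control A549 libraries, and 4.37 to 4.45% in exposed and 4.85 to 5.21% in control 293T libraries. With FPKM rescaled to a common sum without these transcripts, the member counts given below were the same, 6 higher and 1 lower in A549 and 4 higher and 0 lower in 293T. Line markers matched the labels in part. The 12 listed of 13 A549 markers summed to 7827 to 7955 FPKM in exposed and 7439 to 7523 FPKM in control A549 libraries, and to 90.4 to 97.9 FPKM in exposed and 87.8 to 90.4 FPKM in control 293T libraries, although SFTPC was listed at 0 in the A549 controls. Of the 11 genes on the 293T list, 7 averaged at least 1 FPKM in 293T, and the list summed to 475 to 533 FPKM in exposed and 443 to 448 FPKM in control 293T libraries. Kidney genes PAX8 and CDH16 were listed at 0 in exposed 293T cells, and the list was no lower in A549, at 579 to 601 FPKM in exposed and 651 to 659 FPKM in control libraries. The 9 markers of blood, vessel and connective tissue cells summed to 12.3 to 15.6 FPKM in A549 and 6.91 to 8.38 FPKM in 293T.

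DUSP1, DUSP8 and DUSP16 were the members that passed the test upward in both lines. For that reason the 250 bases before an annotated start of each are shown, from the RefSeq promoters of GRCh38.p14. Capitals mark matches to motifs searched on both strands. The DUSP1 stretch is chr5:172771196-172771445, the DUSP8 stretch chr11:1572272-1572521 and the DUSP16 stretch chr12:12562864-12563113, all on the minus strand. Those of DUSP1 and DUSP16 adjoin the ends of their genes. The DUSP8 stretch lies inside the span of its gene, chr11:1554051-1572848, and so precedes an internal start.
DUSP1: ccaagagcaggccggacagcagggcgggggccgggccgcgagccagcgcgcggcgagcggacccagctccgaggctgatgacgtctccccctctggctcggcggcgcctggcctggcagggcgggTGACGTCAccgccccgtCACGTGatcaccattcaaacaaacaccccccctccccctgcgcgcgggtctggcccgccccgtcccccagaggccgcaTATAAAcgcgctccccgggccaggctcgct
DUSP8: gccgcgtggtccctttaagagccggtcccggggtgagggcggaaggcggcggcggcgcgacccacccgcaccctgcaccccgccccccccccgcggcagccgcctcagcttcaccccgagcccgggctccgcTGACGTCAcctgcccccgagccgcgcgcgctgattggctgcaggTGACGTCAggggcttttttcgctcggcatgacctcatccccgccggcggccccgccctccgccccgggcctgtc
DUSP16: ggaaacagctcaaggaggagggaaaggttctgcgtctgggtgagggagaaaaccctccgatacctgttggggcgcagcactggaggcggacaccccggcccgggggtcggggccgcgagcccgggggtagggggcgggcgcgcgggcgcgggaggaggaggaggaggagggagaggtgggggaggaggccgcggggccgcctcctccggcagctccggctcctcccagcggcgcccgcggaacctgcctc

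The cAMP response element TGACGTCA stood 125 to 118 bases before the start of DUSP1. It stood in 2 places before that internal start of DUSP8, at 118 to 111 and at 74 to 67 bases. Such an element was present in 1.65% of the 35114 promoters in the table. The DUSP1 stretch also held the E-box CACGTG at 108 to 103 bases, present in 6.35% of promoters, and the TATA box letters TATAAA at 30 to 25 bases, present in 10.7%. None of these was found in the DUSP16 stretch. The heat shock element TTCNNGAA, the AP-1 element TGANTCA, the ETS site CCGGAAG and the CArG box, which were present in 6.62%, 6.57%, 8.52% and 1.16% of promoters, had no match before any of the members in the table. Of the 10 members 8 had a promoter in the table, and of these DUSP2 also had the E-box, at 113 to 108 bases. DUSP4 and DUSP5 are named only. These are matches of letters and not binding sites.

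The messengers differed in AU-rich elements, letters of the 3′ UTR that are known to shorten the life of immediate early transcripts. In GENCODE 29 the DUSP1 3′ UTR of 672 bases held 4 copies of ATTTA, which is 5.95 per kilobase against a median of 1.41 over 18909 genes. It also held 2 copies of the nine-letter form, which 7.51% of genes have. DUSP8 and DUSP4 held 1 each, and DUSP4 passed the test in neither line. A site of DUSP1 and of DUSP8 is shown with that form in capitals, at chr5:172768645-172768669 for DUSP1 and chr11:1556376-1556400 for DUSP8, both on the minus strand.
DUSP1 site: gctggtccTTATTTATTtaacttca
DUSP8 site: tcgattttTTATTTATTtaagctgt

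DUSP4 held 6 copies of ATTTA, DUSP16 had 5 and DUSP8, like DUSP1, had 4. At least 6, 5 and 4 copies were held by 21.1%, 25.2% and 30.3% of genes. Per kilobase, DUSP4, DUSP16 and DUSP8 held 1.51, 1.91 and 1.62 copies, against the median of 1.41 over all genes searched. DUSP2, DUSP10 and DUSP14 had 3 each and DUSP6 had 1. DUSP5 and DUSP7 had none. Per kilobase, DUSP1 held the most copies of all members. Decay of these messengers was not measured, and a role of the elements in the responses was not tested.

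In A549 cells 7 of the 10 genes changed in the field, where 40.2% of all genes tested did. DUSP1, DUSP5, DUSP6, DUSP8, DUSP10 and DUSP16 rose, DUSP7 fell, and DUSP2, DUSP4 and DUSP14 did not pass the test (limma on log2(FPKM + 1), adjusted over all genes by Benjamini-Hochberg, threshold 0.05). Of all genes tested, 13.3% rose and 26.9% fell. The median of the 10 differences was 0.32 on the log2 scale, against -0.04 over all genes tested. In 293T cells 4 genes rose, DUSP1, DUSP8, DUSP14 and DUSP16, and 0 fell. No member with a negative difference had an unadjusted p under 0.05 either, and limma-voom on the recovered counts also called 0 lower. Over all genes in 293T, 38% changed, 13.7% upward and 24.2% downward, and the median of the 10 differences was 0.20, against -0.03 over all genes. Libraries of exposed and control cells did not overlap for 6 members that were higher and 1 that was lower in exposed A549 cells, where 17.1% and 32.6% of all genes did so. The same was seen for 5 members that were higher and 1 that was lower in exposed 293T cells, where 19.1% and 30.8% of all genes did so. Without exposed replicate 3, the library nearest to the controls, 6 members rose and 1 fell in A549, and 4 rose and 0 fell in 293T. Only 4 rose in A549 without exposed replicate 2 or control replicate 1 and 5 without exposed replicate 1, and 3 rose in 293T without exposed replicate 1 or control replicate 2.

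**Figure D1:**
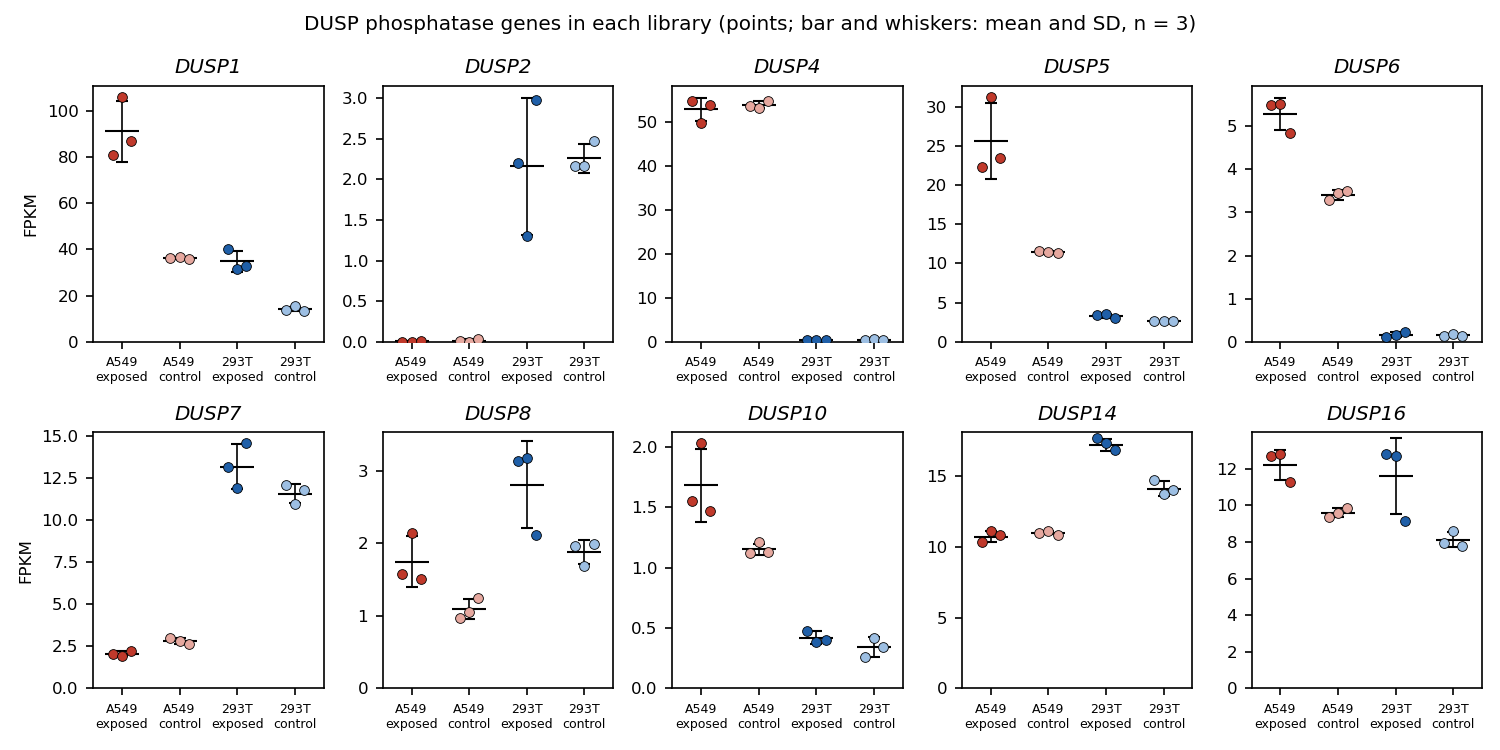
Level of each DUSP gene in FPKM (vertical axes, linear, 1 scale per gene) in exposed and control libraries of A549 and 293T. Points are libraries, and the bar and whiskers are the mean and SD (n = 3). DUSP1 was higher in all exposed libraries of both lines, DUSP5 and DUSP6 responded clearly in A549, and DUSP2 and DUSP4 were near 0 in 1 line.

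DUSP1, an immediate early nuclear phosphatase of p38, JNK and ERK, lies at chr5:172768096-172771195. It was measured at 80.7, 106 and 86.7 FPKM in exposed A549 libraries, against 36.3, 36.7 and 35.9 FPKM in A549 controls. In 293T it was measured at 40.1, 31.7 and 33.0 FPKM in exposed libraries and at 13.9, 15.4 and 13.3 FPKM in controls. Every exposed library was above every control of its line, and the exposed 293T libraries lay at about the level of unexposed A549 cells. The mean rose 2.51-fold in A549 and 2.46-fold in 293T. On the log2 scale these were differences of 1.29 (95% interval 1.08 to 1.50, adjusted p = 2.91e-06) and 1.24 (1.02 to 1.45, adjusted p = 1.28e-05). The response in A549 minus that in 293T was 0.06 (-0.25 to 0.36, adjusted p = 0.839), so a difference between the lines within that interval was not resolved. Both rises passed the test under each of the 23 alternatives tried. In these cultures, a change in the number of responding cells and a change of RNA per cell cannot be told apart.

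DUSP5, an ERK-selective phosphatase that also holds ERK in the nucleus, lies at chr10:110497907-110511533. Exposed and control A549 libraries were apart for this gene, with 22.3, 31.2 and 23.4 FPKM in exposed libraries, against 11.6, 11.5 and 11.3 FPKM in controls. The 293T values were 3.37, 3.52 and 3.06 FPKM in exposed and 2.69, 2.69 and 2.61 FPKM in control libraries. The 293T groups were apart as well. The log2 difference was 1.08 in A549 (0.88 to 1.29, adjusted p = 6.30e-06), a 2.24-fold rise. In 293T it was 0.23 (0.03 to 0.44), which did not pass after adjustment (adjusted p = 0.0659), and 7 of 23 alternatives did call it. Quantile normalization was 1 of these (adjusted p = 0.0276), and leaving out exposed A549 replicate 1 or 2 gave 0.0433 and 0.00231. Fitting each line alone was another (adjusted p = 0.0192), so the 293T call depended on the spread shared with A549. The response was larger in A549 than in 293T by 0.85 (0.56 to 1.14, adjusted p = 0.00196).

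DUSP4, a nuclear phosphatase of ERK and JNK at chr8:29333064-29350684, was the most abundant member in unexposed A549 cells. It was measured at 54.6, 49.8 and 53.8 FPKM in exposed A549 libraries and at 53.6, 53.2 and 54.8 FPKM in controls. The groups overlapped, with a log2 difference of -0.03 (-0.12 to 0.06, adjusted p = 0.631), which bounds a rise at 0.06. In 293T the gene was low, at 0.385, 0.446 and 0.422 FPKM in exposed and 0.482, 0.541 and 0.460 FPKM in control libraries, from 104 to 125 counts per exposed library and 128 to 152 counts per control library. All exposed 293T libraries were below all controls. The difference of -0.08 did not pass (-0.17 to 0.02, adjusted p = 0.185), but on log2(FPKM + 0.1), which compresses low values less, it was -0.20 and passed (adjusted p = 0.0324).

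DUSP2, a nuclear phosphatase known best from activated lymphocytes, lies at chr2:96143169-96145440. A549 cells gave 0, 0 and 1 counts in exposed libraries and 1, 0 and 2 counts in controls, so no fold can be given there. In 293T it was measured at 2.20, 1.30 and 2.98 FPKM in exposed libraries, against 2.16, 2.16 and 2.47 FPKM in controls. The exposed libraries lay on both sides of the controls, with exposed replicate 2 the lowest, and the difference of -0.08 did not pass (-0.38 to 0.22, adjusted p = 0.695). It was 0.13 without that library.

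DUSP6, a cytoplasmic ERK phosphatase whose own transcription is known to depend on ERK activity, lies at chr12:89347235-89352501 within the span of the readthrough gene POC1B-DUSP6. Exposed A549 libraries held 5.49, 5.51 and 4.85 FPKM, and A549 controls held 3.28, 3.44 and 3.49 FPKM. The groups were apart, with a log2 difference of 0.51 (0.39 to 0.63, adjusted p = 2.99e-05), a 1.55-fold rise. In 293T all libraries were low, at 0.111, 0.150 and 0.220 FPKM in exposed and 0.130, 0.185 and 0.130 FPKM in control libraries, from 67 and 62 counts in all. Those groups overlapped, and the difference was 0.01 (adjusted p = 0.872). The response was larger in A549 by 0.50 (0.33 to 0.67, adjusted p = 0.00194). With a pseudocount of 0.1 the estimate was 0.56 but no longer passed (adjusted p = 0.105), and by limma-voom on recovered counts it was 0.55 (adjusted p = 0.398).

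DUSP7, the close relative of DUSP6 and also an ERK phosphatase, lies at chr3:52048919-52056571 and moved the other way in A549. Its level was 2.05, 1.93 and 2.20 FPKM in exposed A549 libraries, against 2.98, 2.82 and 2.63 FPKM in A549 controls. All exposed libraries were below all controls, a 1.37-fold fall with a log2 difference of -0.32 (-0.46 to -0.17, adjusted p = 0.00259). It was several times more abundant in 293T, at 13.2, 11.9 and 14.6 FPKM in exposed and 12.1, 11.0 and 11.8 FPKM in control libraries, where the groups overlapped. The 293T difference was 0.17 (0.02 to 0.32, adjusted p = 0.0639), and it passed under 4 of 23 alternatives, with 0.0335 after quantile normalization, 0.0242 after centring on library medians, 0.0372 by limma-voom and 0.0178 without exposed 293T replicate 2. The response in A549 minus that in 293T was -0.49 (-0.69 to -0.28, adjusted p = 0.00680).

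DUSP8, a phosphatase of JNK and p38 at chr11:1554051-1572848, was low in both lines. A549 libraries held 1.58, 2.15 and 1.51 FPKM in exposed and 0.968, 1.05 and 1.24 FPKM in control A549 libraries. Those of 293T held 3.14, 3.18 and 2.12 FPKM in exposed and 1.97, 1.69 and 1.99 FPKM in control libraries. The groups were apart in both lines, with log2 differences of 0.39 in A549 (0.14 to 0.64, adjusted p = 0.0158) and 0.39 in 293T (0.15 to 0.64, adjusted p = 0.0168). The calls were close to the threshold. In A549 the adjusted p was 0.0698 without exposed replicate 2 and 0.0530 without control replicate 1, and in 293T it was 0.0696 and 0.0741 without exposed replicates 1 and 2 and 0.0648 without control replicate 2. The span of DUSP8 also holds KRTAP5-AS1, at 0.227 FPKM in exposed and 0.182 FPKM in control A549 cells and at 0.190 FPKM in exposed and 0.0997 FPKM in control 293T cells, and use of strand in counting is not given.

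DUSP10, also a phosphatase of JNK and p38, lies at chr1:221701424-221742089. It was measured at 1.55, 2.03 and 1.47 FPKM in exposed and 1.12, 1.21 and 1.13 FPKM in control A549 libraries, which did not overlap. The log2 difference was 0.31 (0.16 to 0.47, adjusted p = 0.00464), a 1.46-fold rise. In 293T the groups overlapped, at 0.478, 0.383 and 0.399 FPKM in exposed and 0.257, 0.419 and 0.345 FPKM in control libraries, with a difference of 0.08 (-0.07 to 0.24, adjusted p = 0.395). The difference between the responses, 0.23, did not pass (0.01 to 0.45, adjusted p = 0.173).

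DUSP16, which acts on JNK and p38 and lies at chr12:12473282-12562863, was more abundant than these 2 in both lines. A549 values were 12.7, 12.8 and 11.3 FPKM in exposed and 9.36, 9.56 and 9.87 FPKM in control A549 libraries. Values in 293T were 12.8, 12.7 and 9.14 FPKM in exposed and 7.97, 8.58 and 7.79 FPKM in control libraries. All exposed libraries were above the controls, but 293T replicate 3 was far lower than the other exposed libraries. The rise was 1.28-fold in A549 (log2 difference 0.32, 0.11 to 0.53, adjusted p = 0.0202) and 1.42-fold in 293T (0.45, 0.24 to 0.66, adjusted p = 0.00373). In A549 the adjusted p was 0.0673 and 0.0655 without exposed replicates 1 and 2 and 0.0543 without control replicate 1. The responses differed by -0.13 (-0.43 to 0.17, adjusted p = 0.596), and without exposed 293T replicate 3 this was -0.28 and passed (adjusted p = 0.0329).

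DUSP14, the small atypical member at chr17:37488566-37513498, passed the test in 293T and not in A549. In A549 it was measured at 10.3, 11.1 and 10.8 FPKM in exposed and 11.0, 11.1 and 10.8 FPKM in control libraries, which overlapped. In 293T it was measured at 17.7, 17.3 and 16.8 FPKM in exposed libraries, all above the 14.7, 13.7 and 14.0 FPKM of the controls. The log2 difference was -0.03 in A549 (-0.12 to 0.05, adjusted p = 0.558) and 0.27 in 293T (0.19 to 0.36, adjusted p = 3.00e-04), a 1.22-fold rise. The response in A549 minus that in 293T was -0.31 (-0.42 to -0.19, adjusted p = 0.00442).

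**Figure D2:**
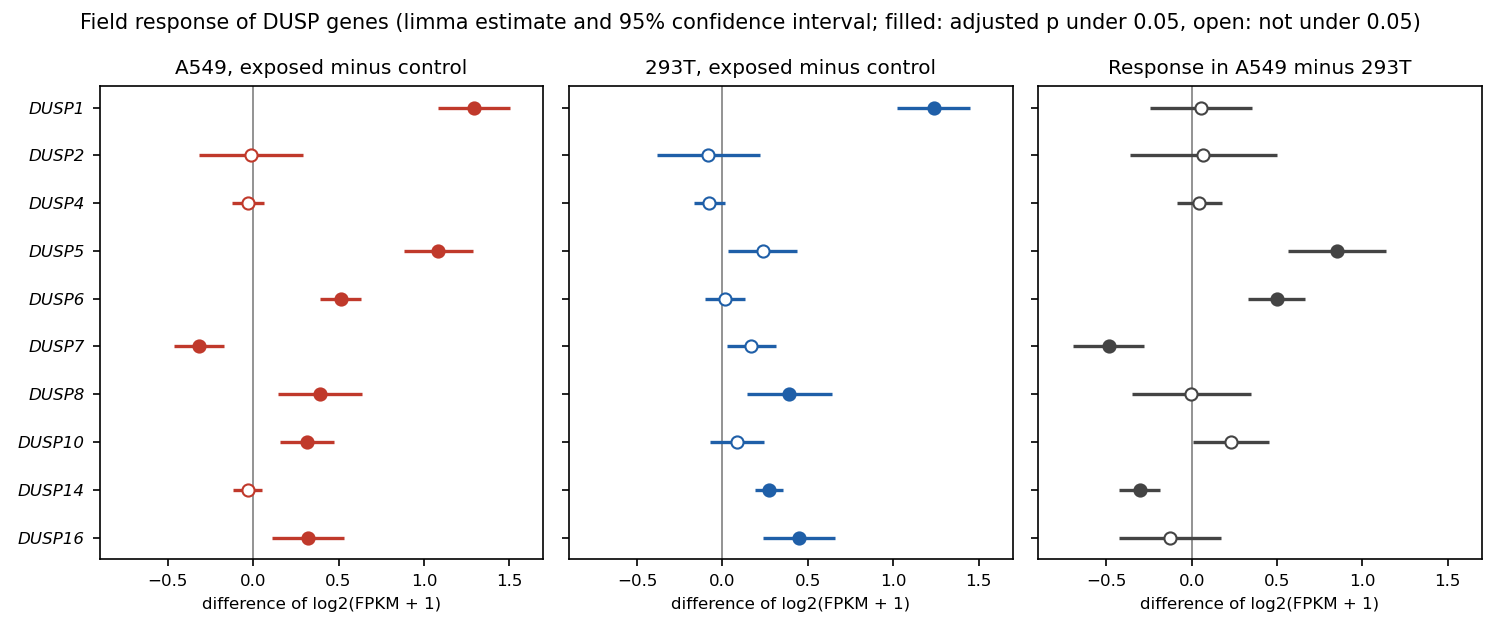
Estimated differences of log2(FPKM + 1) with 95% confidence intervals for exposed minus control A549 cells, exposed minus control 293T cells and the response in A549 minus that in 293T. Filled points passed an adjusted p of 0.05. DUSP1 lay near 1.3 in both lines, while DUSP5, DUSP6, DUSP7 and DUSP14 are the filled points of the right panel.

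The difference between the lines was thus called for 4 of the 10 genes. DUSP5 and DUSP6 had the larger upward difference in A549, and DUSP7 and DUSP14 were lower in their A549 response. Among all genes 12.5% were called, 5.51% in the first direction and 7.03% in the second. DUSP6 was kept by the filter only through A549 and was at 0.161 FPKM in exposed and 0.148 FPKM in control 293T cells. At such levels log2(FPKM + 1) compresses change, so the DUSP6 call cannot tell a smaller 293T response from a low level. It did not pass with a pseudocount of 0.1 (adjusted p = 0.105) or by limma-voom (adjusted p = 0.398). DUSP1, DUSP8 and DUSP16, called higher in both lines, were not called different, with intervals that reach 0.36, 0.35 and 0.43 on the log2 scale in one direction or the other.

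The spread among exposed libraries was shared by several members, but a like order held over all genes tested. On their first principal component exposed A549 replicate 2 lay farthest from the controls, at 18.2, and replicate 3 nearest, at 9.91. For 293T, exposed replicate 1 lay farthest, at 16.1, and replicate 3 nearest, at 6.51. The order was thus not particular to these members. Exposed A549 replicate 2 held the highest value of all 6 members that rose in A549, while replicate 3 held the lowest of 4 and replicate 1 the lowest of 2. In 293T exposed replicate 1 held the highest value of 3 of the 4 members that rose, and replicate 3 the lowest of 3. The SD was larger in exposed than in control libraries for 8 of the 10 genes in A549 and for 7 in 293T, a count not made over all genes. That of DUSP1 was 13.1 FPKM in exposed and 0.402 FPKM in control A549 libraries, and that of DUSP5 was 4.84 FPKM in exposed and 0.159 FPKM in control A549 libraries.

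**Figure D3:**
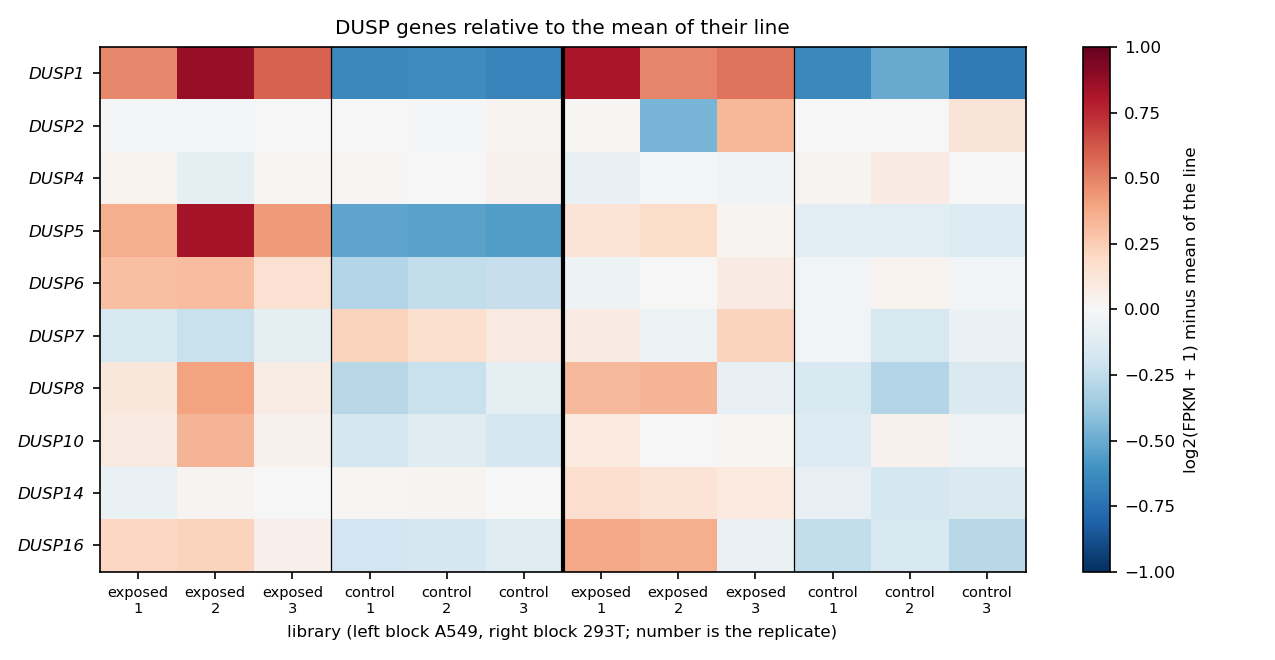
Each DUSP gene (down) in each library (across), as log2(FPKM + 1) minus the mean of the 6 libraries of its line, with red above and blue below that mean. Exposed A549 replicate 2 has the deepest red for DUSP1, DUSP5, DUSP8 and DUSP10, and DUSP7 has the opposite colours to DUSP6 in A549.

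The order of the levels, which FPKM allows because it is per length, changed with exposure. In exposed A549 cells DUSP1 came first at 91.0 ± 13.1 FPKM (SD), followed by DUSP4 at 52.8 ± 2.57 and DUSP5 at 25.6 ± 4.84, with no overlap between neighbours. DUSP16, DUSP14 and DUSP6 came next, also apart from each other, and DUSP7, DUSP8 and DUSP10 overlapped near 2 FPKM. In A549 controls DUSP4 came first at 53.9 ± 0.838 FPKM, ahead of DUSP1 at 36.3 ± 0.402 and DUSP5 at 11.4 ± 0.159, and DUSP14 was above DUSP16. DUSP1 and DUSP4, and likewise DUSP14 and DUSP16, thus changed places with exposure in A549. In exposed 293T cells DUSP1 stood apart at 34.9 ± 4.53 FPKM above DUSP14 at 17.2 ± 0.409, and DUSP7 and DUSP16 overlapped below them. In 293T controls DUSP1 and DUSP14 overlapped, at 14.2 ± 1.06 and 14.1 ± 0.538 FPKM, with DUSP7 next at 11.6 ± 0.570.

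The 10 genes together reached 191, 222 and 196 FPKM in exposed and 130, 131 and 131 FPKM in control A549 libraries, and 93.5, 82.5 and 82.8 FPKM in exposed and 56.4, 56.3 and 54.9 FPKM in control 293T libraries. DUSP1 made up 44.7% of this sum in exposed and 27.8% in control A549 cells, and 40.4% in exposed and 25.4% in control 293T cells. DUSP4 made up 26.1% in exposed and 41.2% in control A549 cells but 0.487% in exposed and 0.885% in control 293T cells. DUSP7 made up 1.02% in exposed and 2.15% in control A549 cells against 15.4% in exposed and 20.8% in control 293T cells. DUSP1 thus took a larger share of this RNA in exposed cells of both lines. A gene that rose did not always gain share. DUSP16 made up 13.7, 15.4 and 11.0% in exposed and 14.1, 15.2 and 14.2% in control 293T libraries, which overlapped.

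Unexposed A549 cells differed from unexposed 293T cells in 9 of the 10 genes, where 88.3% of all genes differed. In A549 5 members were higher and 4 lower, against 32.4% and 55.9% of all genes. These counts include DUSP2, DUSP4, DUSP6 and DUSP10, which were kept through a single line, so they cannot be weighed against those shares. DUSP4 was 109-fold higher in A549, DUSP6 22.9-fold, DUSP5 4.29-fold, DUSP10 3.38-fold and DUSP1 2.56-fold. The adjusted p was 7.91e-10 for DUSP5 and 3.06e-08 for DUSP1, while DUSP4, DUSP6 and DUSP10 were tested only because A549 held them, and their values are a description. DUSP7 was 4.14-fold lower in A549 (adjusted p = 3.14e-11), DUSP8 was 1.73-fold lower (0.00175) and DUSP14 was 1.28-fold lower (2.57e-06). DUSP2 was lower too, with 3 counts in all A549 controls against 469 in 293T controls, a ratio of 0.00632 (95% exact counting interval 0.00130 to 0.0186). It was tested only because 293T held it, so these values too are a description. DUSP16 was at 9.60 ± 0.257 FPKM in A549 and 8.12 ± 0.413 FPKM in 293T, which did not pass (adjusted p = 0.0505) although the libraries were apart, and 9 of 22 alternatives called it. Of the related pair DUSP6 and DUSP7, DUSP6 was thus high in A549 and DUSP7 high in 293T.

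Of the other genes of the DUSP family, 14 of 18 names were listed and 11 were tested. In A549 2 of the 11 rose and 1 fell by limma, where 13.3% and 26.9% of all genes did. In 293T 2 rose and 0 fell by limma, where 13.7% and 24.2% of all genes did. In 293T 2 were lower at an unadjusted p under 0.05 and 0 by limma-voom. DUSP12, the lower gene nearest to the threshold there, had an adjusted p of 0.0741, and of 0.00817 without exposed replicate 3. DUSP9, the remaining typical MAP kinase phosphatase, was at 0.285 ± 0.0221 FPKM in exposed and 0.269 ± 0.0938 FPKM in control A549 cells, and at 12.2 ± 0.189 FPKM in exposed and 12.2 ± 0.542 FPKM in control 293T cells. Its intervals were -0.10 to 0.14 in A549 and -0.12 to 0.12 in 293T. STYXL1, a catalytically inactive relative, rose in both lines, to 12.4 ± 0.421 FPKM in exposed against 10.6 ± 0.304 FPKM in control A549 cells (adjusted p = 0.00147) and to 7.59 ± 0.186 FPKM in exposed against 6.59 ± 0.225 FPKM in control 293T cells (adjusted p = 0.00451). DUSP19 rose 1.52-fold in 293T (adjusted p = 0.00393) and 1.64-fold in A549 (adjusted p = 0.0251), the A549 call being lost without exposed replicate 2 (0.0556), exposed replicate 3 (0.0690) or control replicate 3 (0.107). DUSP28 was 1.27-fold lower in exposed A549 cells (adjusted p = 0.0283), a call lost under 9 alternatives, quantile normalization among them (0.174), and its span overlaps ANKMY1.

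The MAP kinases, the family on which these phosphatases act, and the kinases just above them were tested as a list of 17 genes. Which of these kinases each phosphatase acts on was not examined. In A549 0 rose and 6 fell in limma, against 13.3% and 26.9% of all genes. In 293T 3 rose and 3 fell, against 13.7% and 24.2% of all genes. By an unadjusted p, and by limma-voom, 0 rose and 7 fell in A549. Quantile normalization and median centring each called 2 higher in A549, and without 293T control replicate 1 or 3 only 1 rose in 293T. MAPK12, a p38 kinase, fell to 7.76 ± 0.527 FPKM in exposed A549 cells, against 12.4 ± 0.154 FPKM in controls (adjusted p = 4.04e-06), and to 17.4 ± 1.02 FPKM in exposed 293T cells, against 21.3 ± 0.407 FPKM in controls (adjusted p = 0.00111). MAPK6, an atypical kinase, fell 1.26-fold in A549 (adjusted p = 1.52e-04), and MAPK7, which encodes a large kinase of the ERK type and overlaps B9D1 and MFAP4, fell 1.38-fold there (adjusted p = 7.22e-04). MAP2K2, an upstream kinase of ERK, fell 1.14-fold in 293T (adjusted p = 0.00278).

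Among 21 RAS, RAF and MAP3K genes, 1 rose and 5 fell in A549, where 13.3% and 26.9% of all genes did. In 293T 3 of the 21 rose and 5 fell, where 13.7% and 24.2% of all genes did. Scaling mattered most here, since 6 rose in A549 after quantile normalization and 6 after median centring, and each gave 5 that rose in 293T, as did limma-voom. Without exposed 293T replicate 3, 3 rose in A549, and 2 did without exposed 293T replicate 1 or exposed A549 replicate 1 or 3. In 293T 3 fell without exposed replicate 1 or control replicate 1 or 2, and after quantile normalization. MAP3K11 fell in both lines, 1.31-fold in A549 (adjusted p = 2.29e-04) and 1.34-fold in 293T (adjusted p = 2.48e-04). The RAS inhibitor RASA1 and the kinase ARAF also fell in both lines, by log2 differences of -0.45 and -0.23 in A549 (adjusted p = 5.29e-04 and 6.22e-04) and of -0.30 and -0.30 in 293T (adjusted p = 0.00844 and 1.60e-04). MAP3K3 fell 1.45-fold in A549 (adjusted p = 3.22e-04), with a difference of 0.13 in 293T (adjusted p = 0.163). MAP3K2 rose 1.34-fold in 293T (adjusted p = 1.97e-04), with a difference of 0.06 in A549 (adjusted p = 0.364). RASA1 overlaps CCNH, MAP3K3 overlaps LIMD2 and ARAF overlaps SYN1.

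Genes known to respond to ERK went both ways. Of 18 tested, 6 rose and 5 fell in A549, where 13.3% and 26.9% of all genes did. In 293T 3 of the 18 rose and 8 fell, where 13.7% and 24.2% of all genes did. The count that fell in A549 was 3 after quantile normalization or median centring and without exposed replicate 1 or control replicate 2 or 3, and the count that rose in 293T was 1 without exposed replicate 1 or control replicate 2 or 3. MYC went opposite ways, with 45.8 ± 2.50 FPKM in exposed against 26.3 ± 0.409 FPKM in control A549 cells (adjusted p = 6.63e-07) and 15.7 ± 0.464 FPKM in exposed against 23.6 ± 0.999 FPKM in control 293T cells (adjusted p = 1.19e-05). The MYC response in A549 minus that in 293T was 1.34 on the log2 scale (1.20 to 1.47, adjusted p = 5.73e-07). EPHA2, a receptor kinase, rose 1.43-fold in A549 and fell 1.34-fold in 293T (adjusted p = 1.22e-05 and 5.83e-04), with a difference between the lines of 0.81 (adjusted p = 6.79e-05). SPRY4, a feedback inhibitor of the pathway whose span overlaps SPRY4-IT1, rose 1.72-fold in A549 (adjusted p = 2.31e-05), with a log2 difference of -0.01 in 293T (adjusted p = 0.967). The SPRY4 responses differed by 0.56 (adjusted p = 0.00133), but by limma-voom the estimate was 1.07 and did not pass (adjusted p = 0.423). A difference between the lines was thus not settled for SPRY4. SPRED2, another such inhibitor, fell by a log2 difference of -0.27 in 293T (adjusted p = 5.47e-04) and rose by 0.15 in A549 (adjusted p = 0.0122, and 0.0551 without exposed replicate 1). Its responses differed by 0.42 (adjusted p = 0.00115). The list stood higher in unexposed A549 than in unexposed 293T cells for 15 of its 18 genes and lower for 3, where 32.4% and 55.9% of all genes were. Genes of the list kept by the filter through 1 line only were not set apart. These counts therefore cannot be weighed against those shares.

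Of 18 transcription factors and kinases that JNK, p38 or ERK act on, 5 rose and 4 fell in A549, against 13.3% and 26.9% of all genes. In 293T 4 of the 18 rose and 6 fell, against 13.7% and 24.2% of all genes. Only 3 fell there after quantile normalization, after median centring, without exposed replicate 1 and without control replicate 2. JUN, the substrate that gives JNK its name, was at 54.8 ± 18.9 FPKM in exposed and 25.0 ± 0.129 FPKM in control A549 cells, and at 271 ± 54.4 FPKM in exposed and 59.1 ± 0.965 FPKM in control 293T cells (adjusted p = 7.68e-04 and 2.19e-05). As for DUSP1, DUSP5, DUSP8 and DUSP10, its highest exposed A549 value, 76.4 FPKM, was in replicate 2. ATF3 and JUND rose 3.02-fold and 1.71-fold in 293T (adjusted p = 4.91e-05 and 3.12e-04). In A549 their log2 differences were -0.13 and -0.26 and did not pass (adjusted p = 0.567 and 0.0584). MKNK2, an ERK and p38 target kinase, rose 1.36-fold in A549 (adjusted p = 7.08e-05) and was lower by a log2 difference of -0.17 in 293T (adjusted p = 0.0229), a call lost after quantile normalization (0.0746), after median centring (0.0701) and without exposed replicate 1 (0.0570) or 2 (0.0503) or control replicate 1 (0.0724) or 2 (0.0574). Its responses differed by 0.58 (0.43 to 0.74, adjusted p = 6.09e-04). RPS6KA1, an ERK target kinase, fell in both lines, by a log2 difference of -0.42 in A549 and -0.18 in 293T (adjusted p = 1.51e-05 and 0.00510).

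Other phosphatases of MAP kinases gave 4 that rose and 2 that fell among 11 tested in each line. Shares over all genes were 13.3% higher and 26.9% lower in A549, and 13.7% and 24.2% in 293T. Of the 11, 2 rose in 293T without exposed replicate 1 or control replicate 3, and 1 fell in A549 after median centring or without control replicate 3. The same 3 genes led in both lines. PPP2CB, a catalytic subunit of protein phosphatase PP2A, rose 1.32-fold in A549 and 1.23-fold in 293T (adjusted p = 1.55e-04 and 0.00153). PPM1D, a p53-induced phosphatase of p38, rose 1.28-fold in A549 and 1.22-fold in 293T (adjusted p = 2.00e-04 and 9.85e-04). PTPN1 fell 1.22-fold in A549 and 1.13-fold in 293T (adjusted p = 4.76e-04 and 0.00918).

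Factors known to control DUSP transcription or mRNA decay gave 4 that rose and 7 that fell of 18 tested in A549, and 5 that rose and 5 that fell in 293T. Shares over all genes were 13.3% higher and 26.9% lower in A549, and 13.7% and 24.2% in 293T. CREB1, a factor known for binding cAMP response elements, rose to 6.82 ± 0.744 FPKM in exposed 293T cells, against 4.74 ± 0.227 FPKM in controls (adjusted p = 7.06e-04). In A549 it rose by a log2 difference of 0.25 (adjusted p = 0.0146), which did not pass without exposed replicate 3 (0.0504) or control replicate 2 (0.0628). Its span overlaps METTL21A, and binding of CREB1 near the members was not measured. ATF4, a stress factor of the same broad family, rose in both lines, by log2 differences of 0.40 in A549 and 0.22 in 293T (adjusted p = 7.01e-05 and 0.00385). ETS2 fell 1.30-fold in A549 (adjusted p = 5.67e-05), with a difference of 0.02 in 293T (adjusted p = 0.722). Of the proteins that bind AU-rich elements and speed decay, ZFP36L2 fell to 9.61 ± 0.232 FPKM in exposed A549 cells, against 13.3 ± 0.419 FPKM in controls, and rose to 17.0 ± 0.482 FPKM in exposed 293T cells, against 14.3 ± 0.347 FPKM in controls (adjusted p = 6.47e-06 and 5.68e-04). Those responses differed by -0.66 (-0.78 to -0.55, adjusted p = 3.95e-05). ZFP36L1, of the same family, rose in both lines, by log2 differences of 0.35 in A549 and 0.39 in 293T (adjusted p = 7.62e-04 and 5.07e-04).

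**Figure D4:**
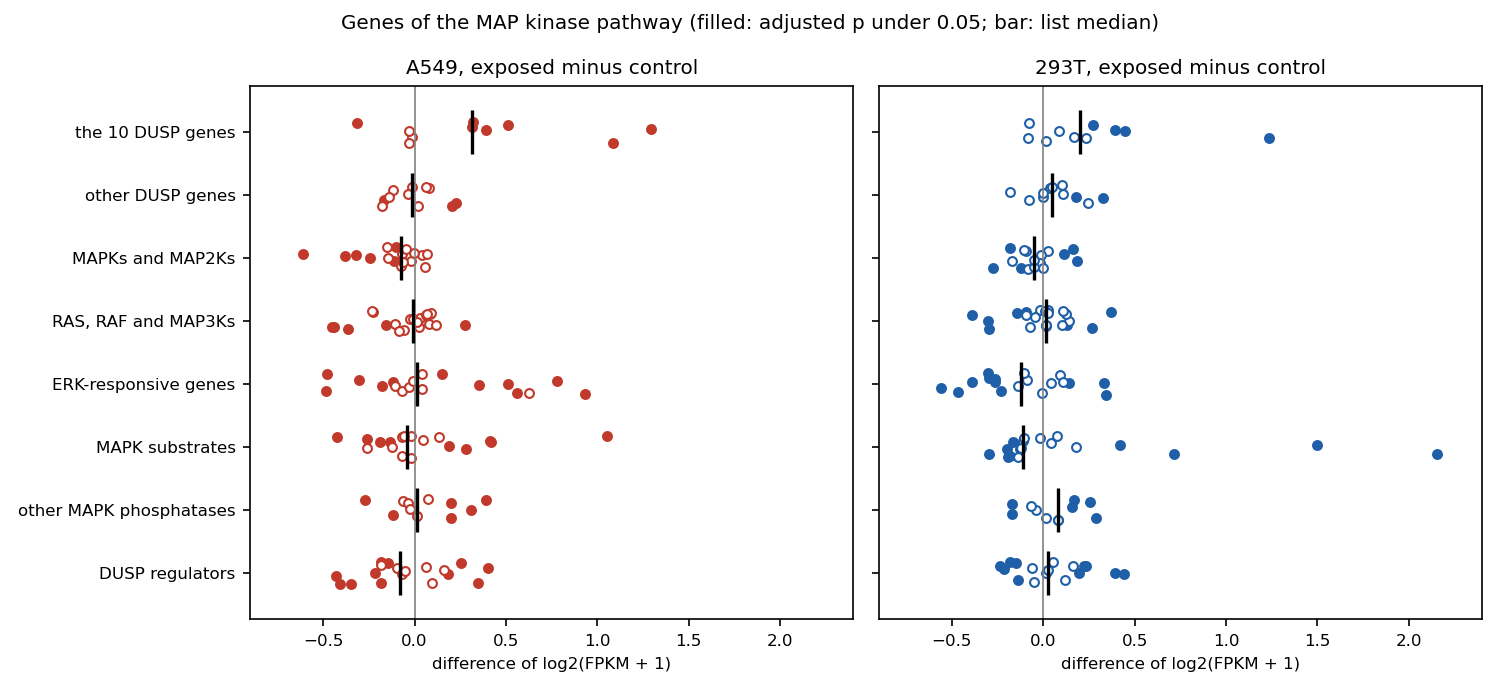
Difference of log2(FPKM + 1), exposed minus control, for each tested gene (points) of the 10 DUSP genes and of 7 further lists of the MAP kinase pathway, in A549 (left panel) and 293T (right panel). Filled points passed an adjusted p of 0.05 and the bars are list medians, which were 0.32 in A549 and 0.20 in 293T for the 10 DUSP genes and between -0.12 and 0.08 for the other lists.

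The genes whose pattern was most like that of 3 members were found by Pearson correlation of log2(FPKM + 1) over the 12 libraries after the mean of each line was subtracted, so that field response and shared library effects both enter. For DUSP1 they were DNAJB1, CLK4 and THAP10, with r of 0.992, 0.990 and 0.989. DNAJB1, a heat shock co-chaperone, was at 326 FPKM in exposed and 60.8 FPKM in control A549 cells and at 245 FPKM in exposed and 41.1 FPKM in control 293T cells. CLK4 is a kinase of splicing factors and was at 13.3 FPKM in exposed and 6.76 FPKM in control A549 cells and at 19.3 FPKM in exposed and 9.53 FPKM in control 293T cells. For DUSP5 they were CCN1, TRIM26 and ACTRT3, with r of 0.995, 0.992 and 0.984. CCN1, a secreted matrix protein, was at 99.3 FPKM in exposed and 22.9 FPKM in control A549 cells but at 6.34 FPKM in exposed and 4.27 FPKM in control 293T cells. For DUSP6 they were MDN1, TUFT1 and PAPPA, with r of 0.989, 0.985 and 0.984. TUFT1 was at 9.51 FPKM in exposed and 6.01 FPKM in control A549 cells, against 7.32 FPKM in exposed and 7.01 FPKM in control 293T cells. The 12 libraries are 4 groups of 3, so these correlations are descriptions.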

How the data were processed

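The genes described and the lists set beside them were chosen with earlier results of these data known. The authors deposited FPKM for 26348 genes. GRCh38 is the build and fastp, HISAT2 and HTSeq are the tools per the submitters' processing notes, and their versions, settings and use of strand are not given in the sources used here. Per the labels' protocols, RNA was extracted with TRIzol, treated with DNase and selected on oligo(dT) beads. FPKM divide by the count total of a library, so when very abundant transcripts take more of that total the rest are lower.

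From these values, log2(FPKM + 1) of all 12 libraries was fitted with a mean for each of the 4 groups in limma 3.58.1 under R 4.3.3, and the moderated variance followed a trend with intensity. Genes with at least 0.5 FPKM in at least 3 libraries entered. Tests were two-sided, the Benjamini-Hochberg adjustment ran over all 13811 genes, the threshold was 0.05, and intervals are 95% intervals of the moderated fit. Differences on this scale understate the change of genes with low values. Folds are ratios of mean FPKM. Single genes tested alone with 3 against 3 libraries could not go below an exact permutation p of 0.10.

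FPKM values were whole multiples of the value of 1 fragment, so counts were recovered for 100% of genes within 0.01 counts. They served for depth, for low genes and for limma-voom. Counting intervals and the floor of 3 counts cover counting error only. Same-numbered exposed and control libraries had correlations of deviations of -0.14, -0.07 and -0.04 in A549 and -0.07, 0.00 and -0.10 in 293T, so the numbers were not taken as pairs.

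All 10 members were named in each comparison. From each further list the 3 genes with the smallest adjusted p in each line were named, with DUSP9 always, and for likeness the 3 genes with the highest r. Of these, 1 gene is not reported here. No gene was on more than 1 list. Coordinates and promoters are from RefSeq for GRCh38.p14 and 3′ UTR sequences from GENCODE 29. Of the 9 promoters of members, 5 matched the GENCODE transcript around the start. The fit was tested on simulated data. Alternatives were no filter, a mean of at least 1 FPKM, a pseudocount of 0.1, quantile normalization, TPM, median centring, a common sum without mitochondrial genes, no variance trend, each line alone, a replicate block, limma-voom and leaving out each library. Python 3.11.15 with pandas 2.3.3, numpy 2.4.6 and scipy 1.17.1 was used.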

Additional observations from a re-analysis of the deposited data

Results flagged for a closer look

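The response to the field differed between the lines for 4 members by the interaction term of the limma fit. On the log2 scale, the response in A549 minus that in 293T was 0.85 for DUSP5, 0.50 for DUSP6, -0.49 for DUSP7 and -0.31 for DUSP14. Over all genes 12.5% had such a difference. DUSP6 was kept by the filter only through A549. Its difference did not pass with a pseudocount of 0.1 (adjusted p = 0.105) or by limma-voom (adjusted p = 0.398). DUSP6 and DUSP7, related cytoplasmic phosphatases of ERK, lay on opposite sides, and DUSP6 was the more abundant of the pair in A549 and DUSP7 in 293T.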

How the results depend on the processing

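Over the alternatives, single members kept direction and side of the threshold in 836 of 896 comparisons. In the rest, 22 passed newly, 14 no longer passed and 24 changed sign, and in each change of sign the main result was not called. In part of the comparisons the estimate could not move, as when a library outside the comparison was left out. Only the adjusted p could change there, so the count of 836 overstates agreement of direction. With a pseudocount of 0.1, 1 member was lower in exposed 293T cells (DUSP4) and 1 was higher in the A549 minus 293T response, since DUSP6 no longer passed. By limma-voom that count was also 1. The A549 minus 293T response of DUSP8 was 0.091 with a pseudocount of 0.1, 0.024 after quantile normalization, 0.037 in TPM, 0.026 after median centring and 0.11 by limma-voom. After quantile normalization it was -0.013 for DUSP1 and -0.017 for DUSP4, and for DUSP2 it was -0.61 by limma-voom. The A549 response of DUSP14 was 0.0038 after quantile normalization and 0.023 after median centring, which gave 0.042 for DUSP2 and 0.025 for DUSP4. Leaving out 1 library gave -0.057 to 0.16 for DUSP1, -0.14 to 0.25 for DUSP2 and -0.14 to 0.070 for DUSP8 in the A549 minus 293T response, -0.056 to 0.0094 for DUSP4 in A549, and -0.27 to 0.13 for DUSP2 and -0.022 to 0.045 for DUSP6 in 293T. The causes were not tested.

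With no filter on low values, the calls of DUSP8 in A549 and 293T (adjusted p = 0.0539 in each) and of DUSP16 in A549 (0.0615) were lost. Each line fitted alone lost DUSP8 in 293T (0.0506) and gained DUSP5 in 293T (0.0192). With the replicate number as a block, the only member call to change was that of DUSP16 between unexposed lines (adjusted p = 0.0328), and calls over all genes were 1596 higher and 3307 lower in A549, against 1837 and 3711 without it. Scaling moved the balance over all genes: 2695 were higher and 2525 lower in A549 after median centring and 2400 and 2786 after quantile normalization. A549 counts of DUSP2, at most 2 per library, and 293T counts of DUSP6 limit what can be said of them there.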
